A study of Mus musculus with 24 samples.

Results

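The mesothelium that lines the pleural and pericardial cavities was compared with the lung, an organ that is itself wrapped in pleura. The comparison rests on 6 of the 24 arrays of the series, 3 of pooled pleural and pericardial mesothelium and 3 of lung, selected by the tissue named in the sample labels. Both tissues came from male C57BL/6 mice aged 7 weeks with no treatment given in the labels. The mesothelium was dissected as tissue from many mice and the pleural and pericardial material was combined, so the cavities cannot be told apart, and it is not a sorted cell population. The labels give the lung only as tissue, and whether its outer pleura had been removed is not given in the sources used here. The study set mesothelium against unrelated tissues to look for markers of the mesothelial lineage. It is also not given whether the 3 arrays of 1 tissue were made from separate animals. The p-values therefore reflect the variation among replicate arrays of a tissue, pooled over the 8 tissues and 24 arrays of the series, which may be technical.

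Mesothelium is a single layer of flat cells that secretes a slippery fluid of hyaluronan and lubricating glycoproteins, which lets lung, heart and chest wall slide past each other. It arises from mesoderm yet carries keratins and tight junctions like an epithelium. The lung is built from airway and alveolar epithelium over a dense bed of capillaries, and it houses alveolar macrophages and granulocytes.

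Signals were normalized over all 24 arrays and are given on the log2 scale. A detection score above 0.99 counted as detection on an array. Of 46120 probes, 12857 reached it on each of the 3 arrays of mesothelium (11221) or of lung (11278) or of both (9642). The single arrays detected 12176 to 13441 probes in mesothelium and 12315 to 13380 in lung. Over the detected probes the mesothelium arrays correlated with each other at 0.954 to 0.963 and with the lung arrays at 0.706 to 0.757. Lung 1 stood apart from the other lung arrays, with correlations of 0.955 and 0.951 to lung 2 and lung 3, which correlated at 0.988 with each other. A gene name could be given to 4413 of the detected probes (34.3%), so every count over a gene list below covers named probes only. A probe that passed the detection filter through 1 tissue alone will mostly read higher there, so the counts over lists describe the detected probes and are not support for a direction.

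A probe was called higher in a tissue where limma's B-statistic was above 0 and the means differed at least 2 fold. By this rule 1339 detected probes (10.4%) were higher in mesothelium and 1597 (12.4%) were higher in lung, while 9921 were not called. A rule of adjusted p under 0.05 with the same fold called 1840 (14.3%) and 1913 (14.9%). Later counts use the B-statistic unless another rule is named. The share of all detected probes with an unadjusted p under 0.05 is not given here. Counts at that limit therefore cannot be compared with it and are not results about a list. The median log2 difference of all detected probes, as mesothelium minus lung, was 0.02. The middle range of the detected probes, between the quartiles, ran from -0.56 to 0.61. On every called probe the 3 arrays of one tissue lay above the 3 of the other. The same absence of overlap was found on 3577 detected probes with mesothelium above and 3364 with lung above, most of which were not called. Among the called probes the median fold was 3.74 toward mesothelium and 3.90 toward lung, and 285 and 351 probes differed by at least 8 fold. No lung array detected 441 of the probes higher in mesothelium (32.9%), and no mesothelium array detected 571 of those higher in lung (35.8%). The fold of such a probe is a lower bound, written as at least N-fold, and was computed against the dimmest detected signal of each array of the undetected tissue. Without lung 1 the counts were 1344 and 1773, and 1187 and 1459 of the calls made with all arrays were among them. Named genes numbered 457 among the probes higher in mesothelium and 392 among those higher in lung, and 0 genes had probes called in both directions. Of the called probes, 614 of 1339 toward mesothelium and 412 of 1597 toward lung had a name. Some names came from the study's list of probes enriched in mesothelium, which was selected from these same arrays. This can tilt the counts of named genes, and the counts and medians over gene lists, toward mesothelium.

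**Figure D1:**
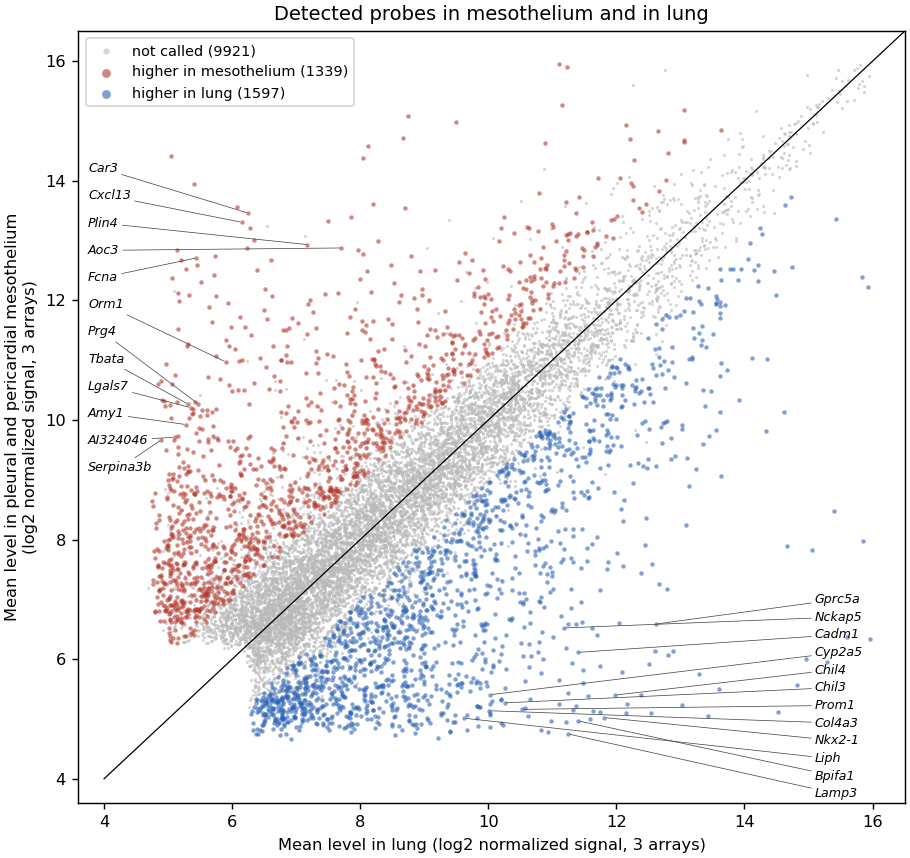
Mean log2 normalized signal of the 12857 detected probes in lung (horizontal axis) and in pleural and pericardial mesothelium (vertical axis), each point 1 probe and the mean of 3 arrays, with the line of equal level and the 12 leading named genes of each direction. The 1339 probes higher in mesothelium lie above the line and the 1597 higher in lung below it, with the leading genes close to background in the other tissue.

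Genes known from mesothelium were the first group examined. The list held 37 genes, 27 of which had a named probe, and several of them, among them Upk3b and Lrrn4, had been selected by the study from these same arrays, so their direction is not independent evidence. Of 28 detected probes, 21 were higher in mesothelium, 2 were higher in lung and 5 were not called. All 28 were detected on every mesothelium array and 13 of them on every lung array. The median difference over these 28 probes was 1.89 on the log2 scale, against 0.02 over all detected probes.

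Wt1, a transcription factor of the mesothelial lineage, had log2 levels of 11.33, 11.55 and 10.84 on the mesothelium arrays and 7.57, 5.94 and 6.40 on lung 1, 2 and 3. Its lowest mesothelium array lay well above its highest lung array, and the difference was 4.60 ± 0.33 (SE), or 24.3 fold (adjusted p = 2.24e-09). Upk3b, a uroplakin family membrane protein, was measured by 3 detected probes, and all of them were called. The first of its probes read 13.24, 12.82 and 13.30 in mesothelium and 11.31, 10.01 and 9.89 in lung on the log2 scale, a difference of 2.72 ± 0.37 (adjusted p = 1.73e-05). The other Upk3b probes gave differences of 2.81 and 2.26, and the former was 2.17 without mesothelium 3. The probe at 2.81 lost its call in a fit of the 6 arrays alone and when all scores entered the background step. Lrrn4, a membrane protein with leucine-rich repeats, had log2 levels of 9.41, 9.01 and 9.84 against 7.24, 6.04 and 5.51, a difference of 3.16 ± 0.44 (adjusted p = 2.12e-05). For Upk3b and Lrrn4 the tissues did not overlap, and in both cases lung 1 was the highest lung array. Nkain4, which binds the sodium pump, was higher by 2.76 ± 0.27 on the log2 scale (6.78 fold).

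The tight junction gene Cldn15 was higher with both of its detected probes, by 3.44 ± 0.32 and 2.38 ± 0.25 on the log2 scale, and the larger difference became 4.03 without lung 1. Lgals7, which encodes a galectin, read 9.64, 10.33 and 10.65 in mesothelium and was detected on no lung array, which makes it at least 16.6-fold higher (adjusted p = 4.04e-07). A second Lgals7 probe was not detected in either tissue. Chst4, a sulfotransferase that modifies glycoproteins, was 6.05 fold higher, Anxa9, an annexin, at least 2.28 fold, and Crip1, a small LIM domain protein, 3.04 fold. Ptgis, the prostacyclin synthase, was 2.50 fold higher with log2 levels of 11.84 to 12.26 in mesothelium and 10.59 to 10.80 in lung. In a fit of the 6 arrays alone the calls of Chst4 and Crip1 were lost. When all scores entered the background step, those of Chst4, Anxa9 and the Cldn15 probe with the smaller difference were lost. Such losses are not named for every gene below. Of 122 called probes among the 149 named, 61 lost their call under at least 1 alternative. The calls of Igfbp6, which binds insulin-like growth factors, and of the membrane glycoprotein Gpm6a also depended on single arrays. Igfbp6 differed by 1.18 ± 0.25 and lost its call without any 1 of mesothelium 1, 2 or 3 or of lung 2 or 3 (0.91 to 1.27), in a fit of the 6 arrays alone and in the authors' normalized table, and Gpm6a differed by 1.35 ± 0.26 and lost it without mesothelium 2 or 3 or lung 1 or 2 (1.22 to 1.36).

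Msln, the surface glycoprotein mesothelin that is the classical marker of these cells, was not called. Its log2 levels were 10.74, 10.71 and 10.85 in mesothelium and 10.31, 8.62 and 8.44 in lung. The mesothelium arrays were close to each other and all lay above the lung arrays, but lung 1 lay far above the other lung arrays. The difference was 1.64 ± 0.39 (adjusted p = 0.00538) with a B-statistic below 0, and without lung 1 it was 2.24 and was called. It was also called by adjusted p and under 2 of the other background steps. Krt19, a keratin of simple epithelia, read 9.24, 8.91 and 9.28 against 9.69, 8.17 and 7.77, with lung 1 above all 3 mesothelium arrays. Its difference was 0.60 ± 0.30 (adjusted p = 0.259), and 1.17 with a call without lung 1. Efemp1, a fibulin of the matrix, differed by 1.42 ± 0.31 and was not called, but it was called without mesothelium 3 (1.61) or without lung 1 (1.60), with median scaling and by adjusted p.

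Some genes of the list were not higher in mesothelium. The keratin gene Krt8, which lung epithelium also makes, read 9.97, 9.15 and 9.85 in mesothelium and 12.14, 11.27 and 11.32 in lung, with every lung array above every mesothelium array, and it was 3.78 fold higher in lung (adjusted p = 4.90e-05). Its partner Krt18 was 2.47 fold higher in lung, a call that was lost without mesothelium 2 or 3 or lung 1 or 2 (log2 differences of -1.35 to -1.02). In a fit of the 6 arrays alone neither Krt8 nor Krt18 was called. The Krt18 call was also lost in the authors' normalized table and with median scaling. Ezr, the linker ezrin of microvilli, and Cdh2, N-cadherin, were not called, with differences of -0.42 ± 0.48 and 0.22 ± 0.22. The calretinin gene Calb2 was detected on no array of either tissue, and the homeobox gene Prrx2 on 2 of the 3 mesothelium arrays and on no lung array. The other 10 genes of the list, Upk1b, Bnc1 and Pdpn among them, had no probe named here and were not analysed.

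The mesothelial list was read at unequal levels on the lung arrays. Of the 34 probes of the list, 21 were detected on lung 1, 13 on lung 2 and 15 on lung 3, against 28 or 29 on each mesothelium array. Of the 28 probes detected in either tissue, 26 were highest on lung 1 among the lung arrays, while 48.5% of all detected probes were highest there. The summed linear signal of the list was 26150 on lung 1, 16716 on lung 2 and 16726 on lung 3, and 38189 to 44414 on the mesothelium arrays. It was 37436 to 40844 on the bladder arrays and 93078 to 103134 on the peritoneal mesothelium arrays. The list includes Krt8 and Krt18, which were higher in lung, so the sum is not a measure of mesothelial cells alone. Over the 21 probes called higher in mesothelium, lung 1 lay 0.63 (log2, median) above the mean of lung 2 and lung 3. The same median was 0.08 over all detected probes and 0.19 over all probes called higher in mesothelium. Without lung 1, 23 probes of the list were higher in mesothelium and 1 was higher in lung, and 20 of the 21 calls made with all arrays remained. Whether pleura on the dissected lung set these levels was not tested. In such bulk tissue fewer cells of a type and less RNA per cell cannot be told apart.

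**Figure D2:**
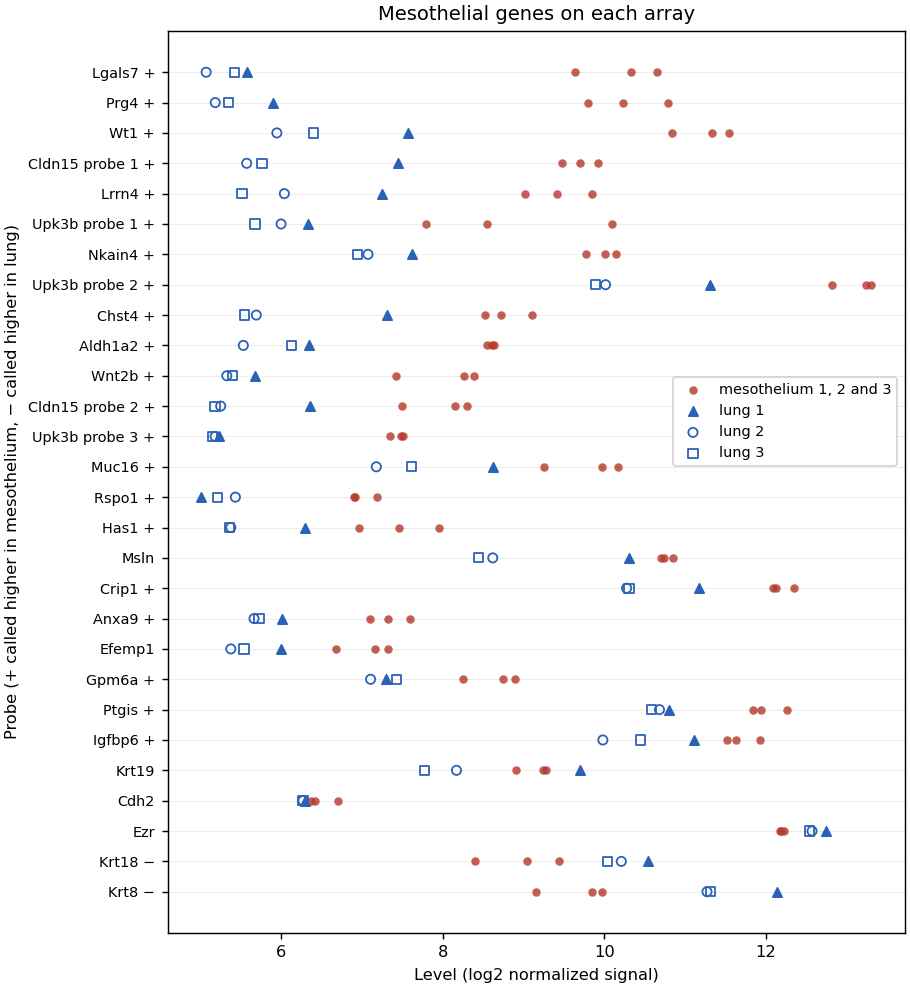
Log2 normalized signal of the 28 detected probes of the mesothelial list (horizontal axis) on each of the 6 arrays, ordered by the difference between the tissues, with mesothelium as filled red points and lung 1, 2 and 3 as separate blue symbols. Lung 1, the filled triangle, is the highest lung array for 26 of the 28 probes and lies above the mesothelium arrays for Krt19.

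Genes of the surface coat and of lubrication were examined next. Of 15 detected probes of the glycan and lubrication list 10 were higher in mesothelium and 3 in lung, with a median log2 difference of 1.77. Every mesothelium array detected 13 of them, every lung array 11, and all arrays of both tissues 9. The study had selected Has1, Chst4 and Vit from these same arrays, and Prg4 and Muc16 for the peritoneal source. The direction of these genes is therefore not independent evidence. Prg4, which encodes the joint lubricant lubricin, read 10.78, 10.22 and 9.80 in mesothelium and was detected on no lung array, so that it was at least 17.4-fold higher (adjusted p = 5.85e-11). The tissues were far apart on every array. Has1, one of the hyaluronan synthases, had log2 levels of 6.96, 7.45 and 7.95 against 6.29, 5.37 and 5.36 and was 3.44 fold higher, with only lung 1 of the lung arrays detecting it. Muc16, the large membrane mucin also known as CA125, read 9.25, 10.17 and 9.97 against 8.62, 7.17 and 7.61 and was 3.98 fold higher. The matrix protein gene Vit was at least 6.32-fold higher with log2 levels of 8.60 to 9.07 in mesothelium. The calls of Has1 and Muc16 were lost in a fit of the 6 arrays alone. Those of Has1 and Vit were lost when all scores entered the background step. On the lung side were the syndecan gene Sdc1, a heparan sulfate proteoglycan of epithelium (at least 4.89-fold), and Hyal2, a hyaluronidase (2.23 fold).

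Matrix genes of fibroblasts divided. Of 29 detected probes 11 were higher in mesothelium and 3 in lung, with a median log2 difference of 0.88. All 3 probes of Dcn, the collagen-binding proteoglycan decorin, were higher in mesothelium, by 1.62, 2.33 and 2.93 on the log2 scale. The last of these calls was lost without mesothelium 2 or 3 or without lung 1 (2.63 to 2.77). The fibulin genes Fbln1 and Fbln2, which encode glycoproteins of elastic matrix, were 8.77 fold and 11.1 fold higher. Fbln2 read 11.27, 11.27 and 11.95 against 7.79, 8.22 and 8.06, with a wide gap between the tissues (adjusted p = 7.80e-09). Emilin2, another elastic matrix protein, was at least 4.97-fold higher. The chains of fibrillar collagen I were not called, with log2 differences of 0.15 ± 0.24 for Col1a1 and 1.20 ± 0.41 for Col1a2, and the difference of Col1a1 changed sign to -0.029 without lung 1. Elastin (Eln) and the protease inhibitor gene Timp3 were higher in lung, by 3.37 and 4.30 fold, as was the collagen VI chain Col6a3 by 3.01 fold. The call of Eln was lost without mesothelium 2 (log2 difference -1.52) or without lung 2 (-1.33).

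Among signalling genes, the retinaldehyde dehydrogenase Aldh1a2, which makes retinoic acid, read 8.61, 8.54 and 8.63 in mesothelium and 6.35, 5.53 and 6.12 in lung on the log2 scale. The mesothelium arrays were close to each other and lay above all lung arrays, a difference of 2.60 ± 0.29 (adjusted p = 1.25e-06). Its relative Aldh1a1 went the other way, at 10.59 to 10.80 in mesothelium and 13.36 to 13.95 in lung, a difference of -2.89 ± 0.34. Lrat, which stores retinol as esters, was at least 5.14-fold higher in lung with log2 levels of 7.07, 9.01 and 9.45, and its log2 difference of -2.87 became -3.59 without lung 1. Of 5 detected probes of the Wnt list 2 were higher in mesothelium, those of the ligand gene Wnt2b (7.42, 8.39 and 8.26 against 5.67, 5.32 and 5.40) and of Rspo1, a secreted enhancer of Wnt signalling (7.19, 6.91 and 6.89 against 5.01, 5.43 and 5.20). No lung array detected either gene, which makes Wnt2b at least 3.66-fold and Rspo1 at least 1.80-fold higher. Both had thus passed the detection filter through mesothelium alone. The study had selected Aldh1a2, Wnt2b and Rspo1 from these same arrays, so their direction is not independent evidence. The calls of Aldh1a2, Lrat, Wnt2b and Rspo1 were lost when all scores entered the background step. Nkd1, a feedback inhibitor of the same pathway, was 2.90 fold higher in lung, but not without mesothelium 3 or lung 2 or 3 (log2 differences of -1.48 to -1.39).

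Chrd, an extracellular antagonist of BMP ligands, was 7.98 fold higher in mesothelium, and Disp1, which releases Hedgehog ligands, 3.94 fold. The ligand gene Bmp6 was at least 3.76-fold higher in lung, where its log2 levels were 8.28, 7.65 and 8.26. The receptor genes Fgfr2 and Fgfr3 were also higher in lung, by at least 2.26-fold and by 3.90 fold. Over the list of FGF, BMP and Hedgehog genes 2 of 10 detected probes were higher in mesothelium and 3 in lung, with a median of -0.15 on the log2 scale. Of 7 detected probes of ion and water transport 3 were higher in mesothelium, those of Nkain4 and of the carbonic anhydrase Car3, and 4 were higher in lung. The potassium channel genes Kcnk2 (13.8 fold) and Kcnj15 (at least 5.84-fold) and the sodium pump subunit Atp1b1 (3.58 fold) were higher in lung. The water channel gene Aqp4 was at least 3.06-fold higher in lung, a call lost without mesothelium 1 or lung 2 or 3 (log2 differences of -2.07 to -1.98).

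The 12 named genes with the largest log2 difference toward mesothelium included 2 of the mesothelial list, Lgals7 and Prg4. This order rests on fitted values, also where lung was not detected. Fcna, the macrophage lectin ficolin A that starts the lectin pathway of complement, had the largest fitted difference among them, at 12.70, 12.56 and 12.87 on the log2 scale against 5.77, 5.37 and 5.18. No lung array detected it, and it was at least 94.3-fold higher (adjusted p = 1.68e-15). Cxcl13, the chemokine that draws B cells into lymphoid follicles, read 13.46, 13.06 and 13.41 against 6.29, 5.80 and 6.35 and was 143 fold higher (adjusted p = 1.58e-09). Both genes had tight replicates and no overlap. The study had selected Fcna and Cxcl13 from these same arrays, so their direction is not independent evidence. The C1q chain genes C1qa and C1qb, which start the classical pathway, were 10.6 fold and 12.3 fold higher, and the complement protease gene C2 was 4.41 fold higher. In all, 5 of 12 detected complement probes were higher in mesothelium and 1, that of the terminal component C6, was higher in lung.

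Macrophage genes divided between the tissues. Of 12 detected probes 6 were higher in mesothelium, those of Fcna, C1qa, C1qb, Lpl, Trem2 and Retnla, and 4 were higher in lung, those of Chil3, Ear2 and Ear1. Lpl is also a member of the list of fat genes examined below. Like Fcna, Trem2 had been selected by the study from these same arrays, so its direction is not independent evidence. Chil3, a chitinase-like lectin of alveolar macrophages, read 11.17, 10.03 and 9.58 in lung and was detected on no mesothelium array, at least 17.2-fold higher in lung. The eosinophil-associated ribonuclease genes Ear1 and Ear2 were 10.1 fold and 13.1 fold higher in lung. Near-identical relatives exist for these genes (Chil3 with Chil4, and Ear1 with Ear2), so each probe may read more than 1 of them. The general macrophage genes Csf1r, the receptor of the growth factor M-CSF, and Cd68, a lysosomal glycoprotein, were not called, with log2 differences of 0.90 ± 0.24 and 0.66 ± 0.34.

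Granulocyte and mast cell genes went opposite ways. The neutrophil gene S100a9, a subunit of calprotectin, read 12.22, 11.33 and 11.70 in lung and 9.06, 6.27 and 6.14 in mesothelium, with mesothelium 1 well above the other mesothelium arrays. It was 24.2 fold higher in lung, and its log2 difference of -4.59 became -5.55 without mesothelium 1. Retnlg, a resistin-like protein of neutrophils, was 10.4 fold higher in lung and the iron binder lactoferrin (Ltf) 15.8 fold, but the call of Ltf was lost without mesothelium 2 or 3 or lung 1 (log2 differences of -3.74 to -3.56). In all 5 of 7 detected probes of this list were higher in lung, against 2 without lung 1. The mast cell proteases Cma1 and Mcpt4 were higher in mesothelium, by at least 5.80-fold and at least 3.18-fold, with log2 levels of 8.53 to 8.77 and 7.42 to 8.25 and with no lung array detecting them.

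Immunoglobulin probes made up 134 of the 614 named probes higher in mesothelium. Of the detected probes, 57 of 59 for the heavy chain, 75 of 81 for the kappa chain and 2 of 7 for the lambda chain were higher in mesothelium. The filter bears on these counts, since all 59, 81 and 7 of these probes were detected on every mesothelium array, and 2, 22 and 5 of them on every lung array. The study had also reported immunoglobulin heavy and light chains as enriched in this mesothelium on these same arrays. The direction of immunoglobulin probes is therefore not independent evidence. The median log2 differences were 3.30, 4.32 and 3.32. The kappa variable probe with the largest difference read 13.01, 12.18 and 13.35 in mesothelium and was detected on no lung array, at least 104-fold higher (adjusted p = 7.07e-14). IGKV5-39 read 13.23, 13.53 and 13.94 against 5.98, 6.61 and 5.65 and was 179 fold higher. Variable genes of a chain share sequence, so a transcript can bind several of these probes and the probes are not independent. The summed linear signal of all 310 immunoglobulin probes was 429659 to 580830 on the mesothelium arrays and 29266 to 45602 on the lung arrays. Of 7 detected probes of the B and plasma cell list 3 were higher in mesothelium, those of Cxcl13, Tnfrsf17 and Ebf1, and 2 were higher in lung, both of Sdc1, which epithelium also makes. Tnfrsf17, the plasma cell receptor BCMA, read 8.75, 8.27 and 8.84 against 5.51, 5.13 and 5.17, at least 5.54-fold higher. Ebf1, a transcription factor of early B cells and of fat precursors, was 4.65 fold higher. Cxcl13 and Tnfrsf17 are also among genes the study selected from these arrays, so their direction is not independent evidence. The B cell genes Cd79a and Ms4a1 had no probe named here. The 3 detected T cell receptor beta probes differed by 1.20 to 2.17 on the log2 scale and were not called, and Cd3e, a subunit of the T cell receptor complex, differed by 2.38 ± 0.87 without a call.

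**Figure D3:**
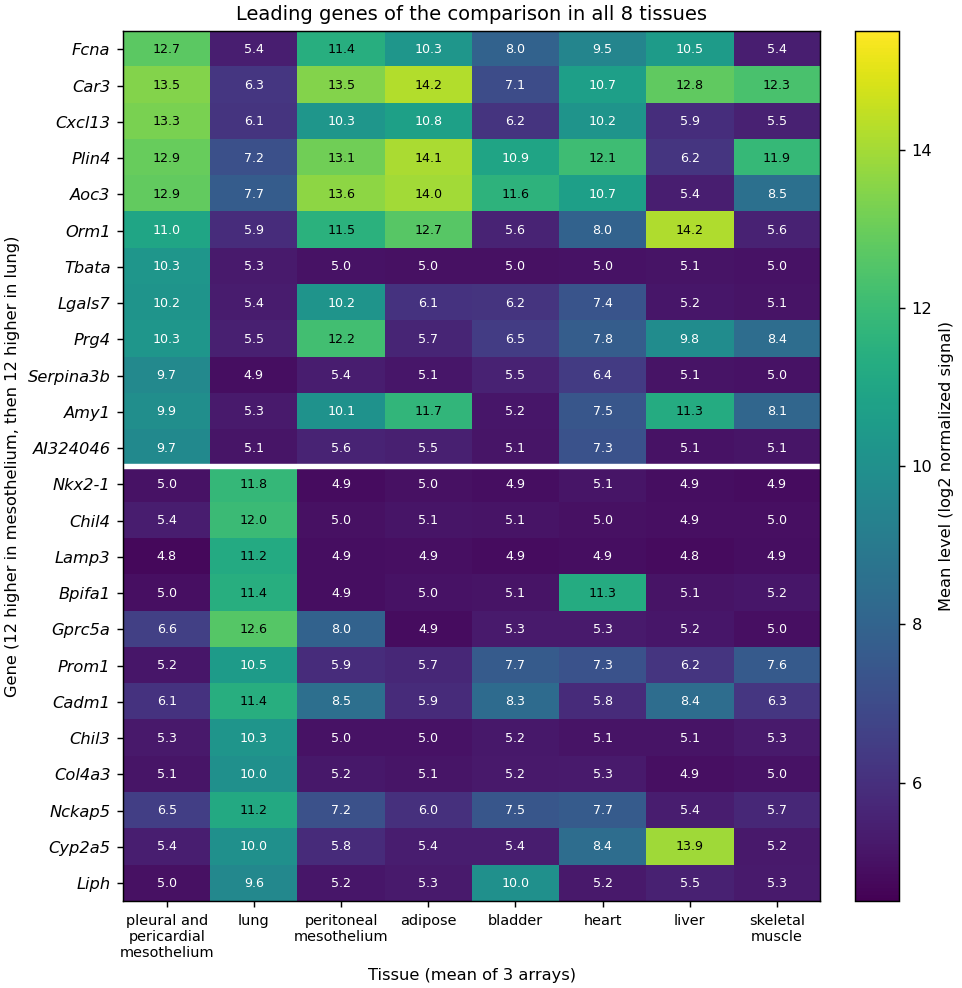
Mean log2 normalized signal (colour) of the 12 named genes with the largest difference toward mesothelium and the 12 with the largest difference toward lung (rows) in each of the 8 tissues of the series (columns), each value the mean of 3 arrays. Nkx2-1 and Lamp3 are near background in every tissue but lung, while Car3, Plin4 and Aoc3 are also high in adipose tissue.

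Genes of the thymus, which lies against the pericardium, were read in mesothelium. The 6 detected probes of 9 were all called higher there, but 5 of the 6 had passed the detection filter through mesothelium alone. Rag1, Prss16, Tbata and Dntt are also among genes the study selected from these arrays, so their direction is not independent evidence. Rag1, the recombinase of developing lymphocytes, read 10.21, 7.75 and 8.46 against 5.42, 5.60 and 5.37, and Prss16, a protease of thymic epithelium, read 8.79, 6.67 and 7.30 against 5.06, 5.37 and 5.29. In both genes mesothelium 1 was the highest array, and without it the log2 differences of 3.35 for Rag1 and 2.34 for Prss16 became 2.64 and 1.74. The thymus gene Tbata read 11.29, 9.08 and 10.43 and was at least 17.3-fold higher, with a log2 difference of 4.95 that was 5.55 without mesothelium 2. The T cell coreceptor gene Cd8b1 (at least 2.18-fold) lost its call without mesothelium 1 (1.82) or lung 3 (2.27). Of the 6 probes 4 remained called without mesothelium 1 and 4 without lung 3, and 7 of 8 detected probes were called without mesothelium 2. The summed signal of the thymus list was 2830 to 10984 on the mesothelium arrays, highest on mesothelium 1, and 764 to 1091 on the lung arrays. Dntt, the terminal transferase, was detected on 2 mesothelium arrays and was called without mesothelium 2 (2.73) or with a looser detection filter, and Ptcra, the pre-T cell receptor alpha chain, was detected on 2 with a log2 difference of 0.15 ± 0.28.

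Fat genes were higher in mesothelium with 9 of 13 detected probes, at a median log2 difference of 2.49. All 13 were detected on every mesothelium array and 7 of them on every lung array, so the filter bears on this count. Car3, a carbonic anhydrase abundant in fat and muscle, read 13.01, 13.33 and 14.04 against 5.67, 6.64 and 6.45 (147 fold, adjusted p = 9.80e-12), and its other probe gave a log2 difference of 6.03. The lipid droplet protein gene Plin4 read 12.85, 13.21 and 12.74 against 7.33, 6.95 and 7.25 and was 54.0 fold higher. Both genes were far above lung on all arrays. The fatty acid elongase Elovl6 was at least 15.3-fold higher, the glycerol channel gene Aqp7 at least 7.22-fold, and the lipase gene Pnpla2 5.60 fold. Fasn, the fatty acid synthase, and Fabp4, a fatty acid carrier, were not called, with log2 differences of 1.11 ± 0.32 and 0.84 ± 0.43. The summed signal of the fat list was 115726 to 166756 on the mesothelium arrays, 26201 to 27324 on the lung arrays and 219872 to 271534 on the adipose arrays. The defining genes Adipoq, Plin1 and Cidec had no probe named here.

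Muscle genes were also read in mesothelium. Of 6 detected heart muscle probes 3 were higher in mesothelium, those of the atrial myosin light chain Myl7, of the mitochondrial subunit Cox7a1 and of the sarcomere protein Mybpc3. Myl7 read 12.97, 13.15 and 13.70 against 11.38, 10.48 and 11.11, all mesothelium arrays lying above lung, and was 4.87 fold higher. Myh6, the atrial myosin heavy chain, was detected on 2 mesothelium arrays and was called only without mesothelium 1 (2.86). Of 4 detected skeletal muscle probes, 1 was higher in mesothelium, that of the calcium release channel Ryr1 (3.21 ± 0.66), and it lost its call without any 1 array (3.09 to 3.35). The summed signal of the heart list was 25179 to 40974 on the mesothelium arrays, 4450 to 5334 on the lung arrays and 158080 to 175010 on the heart arrays. For skeletal muscle it was 2084 to 3193, 307 to 332 and, on the muscle arrays, 118890 to 122871. The part of thymus, fat, muscle and antibody-forming cells in the differences toward mesothelium was not tested.

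**Figure D4:**
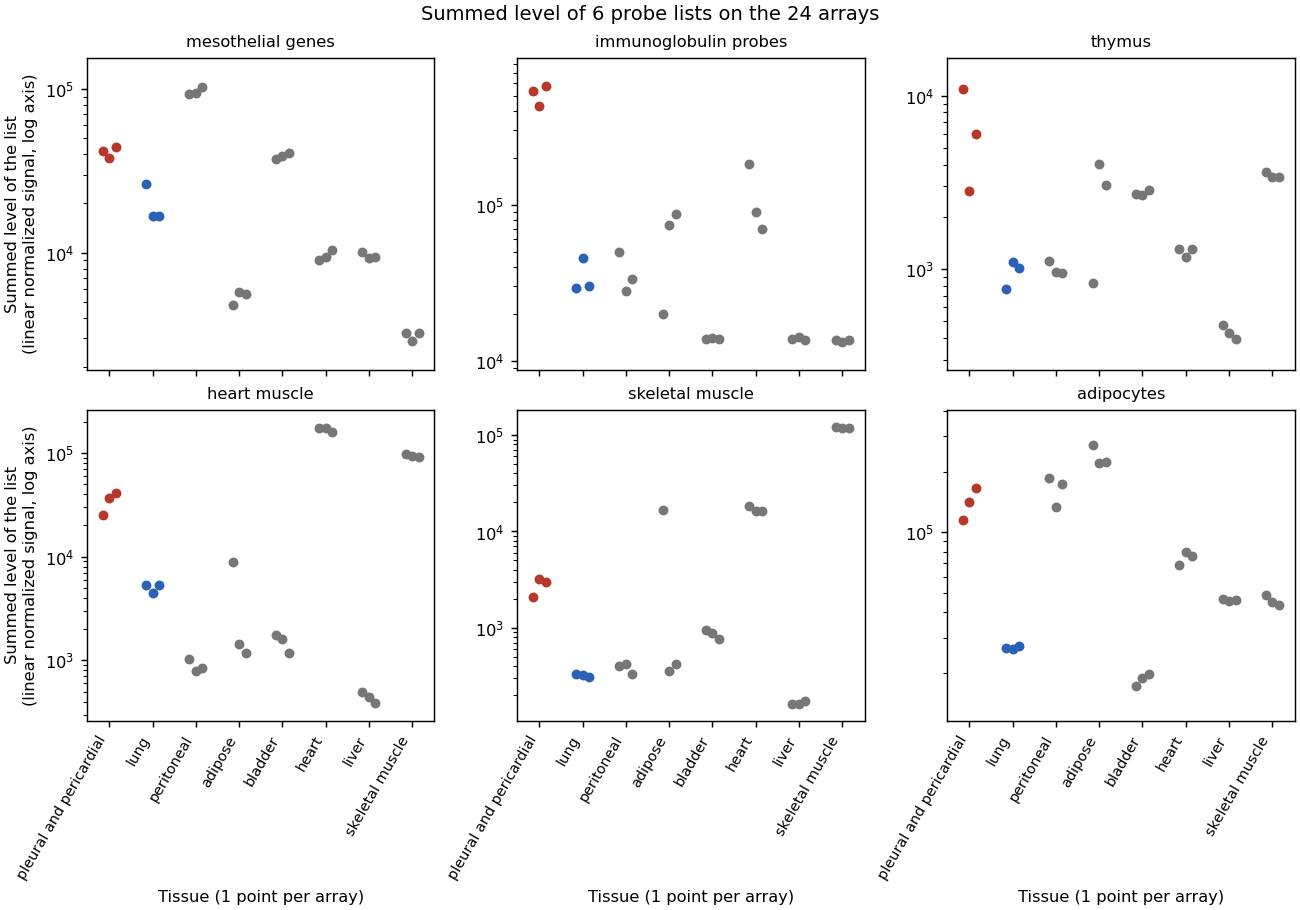
Summed linear normalized signal of 6 probe lists (panels) on each of the 24 arrays, grouped by tissue, on a log axis. The mesothelium arrays exceed the lung arrays for the immunoglobulin, thymus, fat and muscle lists, and lung 1 carries more of the mesothelial list than lung 2 and lung 3.

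Other leading genes of the mesothelium side were Aoc3, a vascular amine oxidase that is also abundant in fat (36.0 fold), Orm1, an acute phase plasma protein (33.6 fold), the serine protease inhibitor gene Serpina3b (at least 11.4-fold) and the amylase gene Amy1 (at least 13.7-fold). AI324046, a transcript with no role given in the sources used here, read 9.82, 9.67 and 9.65 and was at least 11.8-fold higher. Serpina3b and Amy1 belong to families of close copies, which a probe may not separate. The direction of Serpina3b and AI324046 is not independent evidence, since the study selected both from these arrays.

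Genes of lung epithelium set the other direction. Nkx2-1, the transcription factor that specifies lung and thyroid, read 12.14, 11.42 and 11.88 in lung and 5.18, 4.88 and 5.01 in mesothelium, where it was detected on no array, and was at least 50.7-fold higher in lung (adjusted p = 5.77e-16). Lamp3, a lysosomal membrane protein of alveolar type 2 cells, read 10.07, 11.98 and 11.69 and was at least 34.2-fold higher, with a log2 difference of -6.49 that was -7.08 without lung 1. Neither was detected on a mesothelium array, and the tissues did not overlap. Of 6 detected probes of type 2 cells 4 were higher in lung, at a median log2 difference of -2.42. The lipid transporter Abca3, which loads surfactant into lamellar bodies, was 5.21 fold higher in lung, and the lysozyme gene Lyz2 4.20 fold, although the Lyz2 call was lost without any 1 array but mesothelium 3 (log2 differences of -2.13 to -1.85). Napsa, a protease that processes surfactant protein, was not called at -2.46 ± 0.62. The surfactant protein genes Sftpc, Sftpb and Sftpa1 had no probe named here.

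Type 1 cell genes were higher in lung with 3 of 4 detected probes. Gprc5a, an orphan receptor of alveolar epithelium, read 12.63, 12.60 and 12.63 in lung and 6.90, 5.90 and 6.96 in mesothelium, a 65.3-fold difference (adjusted p = 6.05e-14). The homeobox gene Hopx read 14.57, 14.57 and 14.71 against 9.23, 10.58 and 10.61 and was 22.3 fold higher, and the proteoglycan gene Spock2 was 6.82 fold higher. The lung arrays were tighter than the mesothelium arrays for Gprc5a and Hopx. Cav1, the coat protein of caveolae, was not called, at -0.64 ± 0.23.

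Airway genes followed. Bpifa1, a secreted protein of the upper airway, read 13.13, 10.34 and 10.73 in lung with lung 1 highest, and was at least 38.1-fold higher in lung, with a log2 difference of -6.43 that was -5.57 without lung 1. It also had a mean log2 level of 11.3 on the heart arrays. Of 5 detected club cell probes 4 were higher in lung, among them the immunoglobulin transporter Pigr (at least 7.80-fold) and the monooxygenase Fmo2 (at least 2.39-fold). The 3 detected probes of ciliated cells, 2 of which had passed the detection filter through lung alone, were called higher in lung, those of the dynein chain Dnali1 (at least 1.58-fold), of Ccdc39, a protein of ciliary assembly (at least 1.26-fold), and of the tubulin Tubb4b (2.01 fold). The Tubb4b call was lost without mesothelium 2 (-0.83) or lung 1 (-0.87). The defining genes Scgb1a1, Scgb3a2, Cyp2f2, Foxj1, Tekt1 and Rsph1 had no probe named here.

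Other leading lung genes were the chitinase-like gene Chil4 (at least 57.1-fold), the stem cell glycoprotein gene Prom1 (at least 20.8-fold), the adhesion gene Cadm1 (39.0 fold), Nckap5 (25.3 fold), the monooxygenase gene Cyp2a5 (at least 14.7-fold) and the phospholipase gene Liph (at least 11.1-fold). Cyp2a5 has a near-identical relative, Cyp2a4. Among lung transcription factors the limma counts at an unadjusted p under 0.05 were 7 toward lung and 1 toward mesothelium. No share of all detected probes stands beside these counts, which are not a result about the list. By the call rule 4 of 11 detected probes were higher in lung and 0 in mesothelium. Beside Nkx2-1 these were Klf5, a factor of epithelial growth (10.98, 11.03 and 10.95 in lung against 7.15, 7.53 and 7.51), the epithelial factor Elf3 (at least 1.67-fold) and Tbx4, a factor of lung mesenchyme (2.39 fold). The Tbx4 call was lost with an offset of 50 and with signals shifted to a minimum of 1, and the Tbx4 and Elf3 calls were lost when all scores entered the background step. Foxa1 and Foxa2 had no probe named here.

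Vessel genes were higher in lung with 8 of 10 detected probes and higher in mesothelium with 0, at a median log2 difference of -2.07. The limma counts at an unadjusted p under 0.05 were 10 and 0, with no share of all detected probes to set beside them, and are not a result about the list. Egfl7, a secreted endothelial protein, read 10.49 to 11.06 in lung and 7.79 to 7.91 in mesothelium and was 7.92 fold higher in lung (adjusted p = 9.61e-09). Gpihbp1, which holds lipoprotein lipase on capillaries, was 5.10 fold higher in lung, Rasip1, a regulator of vessel tubes, 5.38 fold, and Ace, the angiotensin-converting enzyme, 4.25 fold. Pecam1, the adhesion molecule CD31, read 11.12, 12.17 and 12.18 against 9.49, 8.07 and 9.71 and was not called, at -2.73 ± 0.63. Its arrays did not overlap, and it was called by adjusted p and under 2 of the other background steps. Both detected smooth muscle probes were higher in lung, the kinase gene Mylk by 6.78 fold and the actin gene Acta2 by at least 2.22-fold. The Acta2 call was lost without mesothelium 1 or 2 or lung 1 (log2 differences of -1.38 to -1.33).

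Basement membrane genes were higher in lung with 5 of 9 detected probes and in mesothelium with 1, at a median log2 difference of -2.19. The collagen IV chains of the alveolar wall stood on the lung side. Col4a3 read 9.22, 10.52 and 10.31 in lung and was detected on no mesothelium array (at least 14.6-fold), Col4a5 was 7.64 fold higher and Col4a4 4.70 fold. The heparan sulfate proteoglycan agrin (Agrn) read 12.98, 13.13 and 13.17 against 10.42, 10.79 and 10.63 (5.57 fold). The exception was Nid2, the linker nidogen, which was 8.37 fold higher in mesothelium, a log2 difference of 3.07 ± 0.38.

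Proliferation genes were higher in mesothelium with 5 of 15 detected probes, those of Uhrf1, Rrm2, Nusap1, Kif22 and Aurkb, and with 3 to 6 probes when 1 array was left out. The lower end, 3 probes, was reached without mesothelium 1 or without lung 3. With all arrays, the 15 probes were detected on every mesothelium array but only 7 of them on every lung array, so the filter bears on these counts. Uhrf1, Kif22 and Aurkb are among genes the study selected from these arrays, so their direction is not independent evidence. Rrm2, a subunit of ribonucleotide reductase, read 8.01, 6.90 and 6.63 and was detected on no lung array, at least 2.04-fold higher. Uhrf1, which keeps DNA methylation through replication, was 4.60 fold higher, but not called without mesothelium 1 (1.79) or lung 3 (1.94). Nusap1, a spindle protein, was 3.35 fold higher, but not called without mesothelium 1 (1.31), lung 1 (1.87) or lung 3 (1.32). The proliferation marker Mki67 was not called, at 0.35 ± 0.30, and Top2a and Cdk1 had no probe named here. Genes of MHC class II, which present antigen, gave 0 calls in 6 detected probes by limma, with 2 higher in mesothelium and 0 higher in lung at an unadjusted p under 0.05. The unadjusted counts again have no share of all detected probes beside them. The invariant chain Cd74 read 14.21, 13.78 and 13.85 against 13.27, 13.64 and 13.18.

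**Figure D5:**
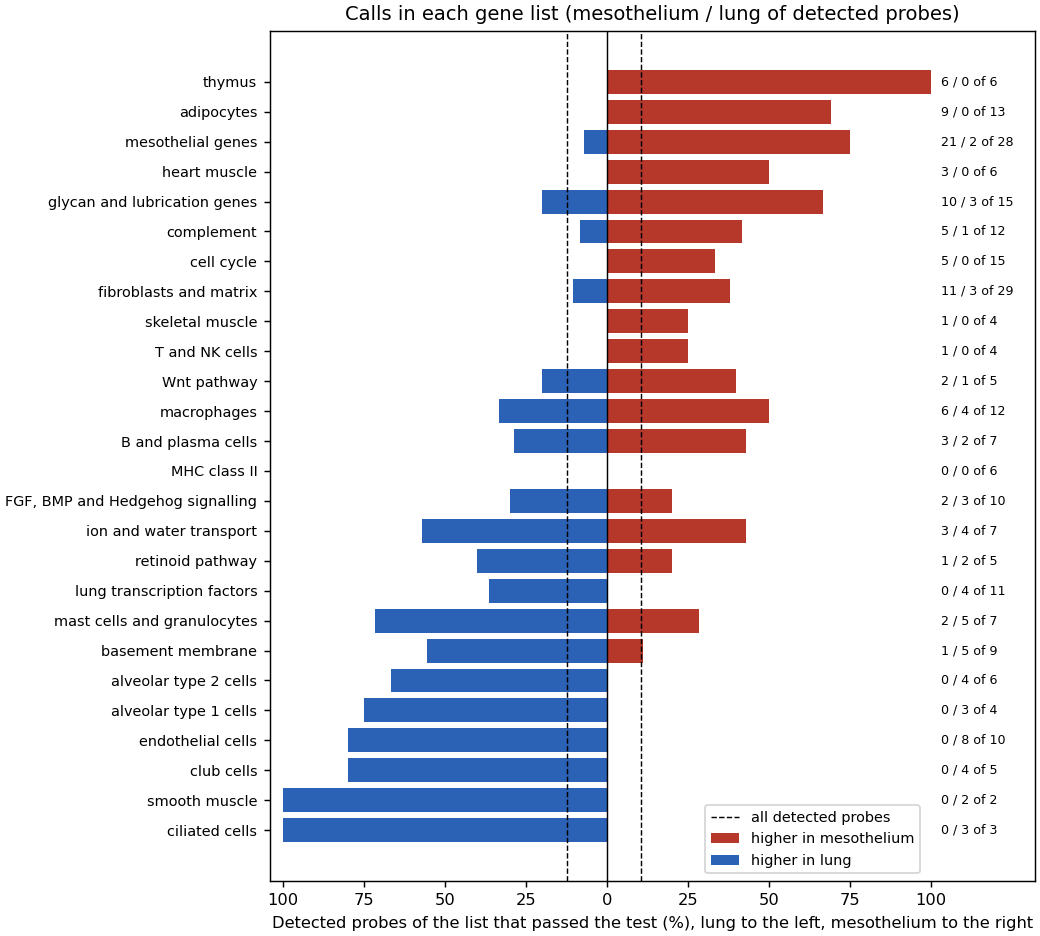
Percent of the detected probes of each gene list (rows) called higher in pleural and pericardial mesothelium (bars to the right) or higher in lung (bars to the left). Dashed lines mark the shares of all detected probes, 10.4% toward mesothelium and 12.4% toward lung, and the counts stand beside each row. The median log2 differences of the lists, not drawn here, ran from -3.62 for alveolar type 1 cells to 3.20 for skeletal muscle, against 0.02 for all detected probes.

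The remaining 6 tissues showed how far the called probes were shared. Of the probes higher in mesothelium than in lung, 292 (21.8%) had their highest mean of the 8 tissues in pleural and pericardial mesothelium, and 57 were detected on no array of the other tissues. Of the probes higher in lung, 1068 (66.9%) had their highest mean in lung and 210 were detected on no array of the other tissues. Among the other tissues, the highest mean of the probes higher in mesothelium lay in adipose tissue for 334, heart for 323, peritoneal mesothelium for 238, skeletal muscle for 212, liver for 188 and bladder for 44. For the probes higher in lung it lay in bladder for 507 and in heart for 285.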

How the data were processed

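RNA was hybridised to Illumina mouse whole-genome bead arrays, 1 colour, with 3 arrays for each of 8 tissues. The deposited intensity values are background-subtracted signals from BeadStudio, and 33.9% of those on the 6 arrays compared were at or below 0. The deposited detection score of each probe is a fraction, 1 minus the detection p-value, although its header calls it a p-value. The authors also deposited quantile-normalized linear intensities, used here as an alternative only.

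Negative control levels were inferred from the scores (1616 controls implied, 10 probes with averaged scores left out), signals were corrected by normexp with an offset of 16, quantile-normalized over 24 arrays and log2-transformed. A limma 3.58.1 model (R 4.3.3) with 1 mean per tissue was fitted to all 46120 probes, assuming a 0.01 share of probes to be changed. The Benjamini-Hochberg adjustment ran over the whole array. Errors of differences are standard errors of this fit. Tables and counts were made with Python 3.11.15, pandas 2.3.3 and numpy 2.4.6, and the fit was tested on simulated data. The number of arrays, 3 per tissue, limits the precision.

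Probes were named through the study's probe tables, or through the gene name or gene ID held in the probe ID, which gave 11414 probes a name. The text names every measured gene of the mesothelial list, the 12 genes with the largest log2 difference in each direction (immunoglobulin and T cell receptor probes left out), the defining genes and up to 4 called members per direction of each list, the leading immunoglobulin probes, and genes whose call changed with the processing. The other named members were chosen after their values were seen. Members and lists were chosen with earlier results of these data known. Alternatives were another background step, scaling, offset, set of arrays, detection filter and call rule, a replicate block, and leaving out each array.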

Additional observations from a re-analysis of the deposited data

How the results depend on the processing

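Over 17 alternatives the count of probes higher in mesothelium stayed within 1.5 times of 1339, and that of probes higher in lung within 1.5 times of 1597, in all but 1. The exception, chosen after seeing the data, used all detection scores in the background step, those of the 10 probes with averaged scores included, and gave 653 and 855 calls, of which 596 and 794 were shared with the original calls. Leaving out 1 array gave 1077 to 1344 probes higher in mesothelium and 1439 to 1773 higher in lung. The quantile-normalized table of the authors gave 1450 and 1618, and a fit of the 6 arrays alone 1159 and 1279. Scaling by the median moved the median log2 difference of all detected probes from 0.02 to 0.13 and gave 1504 and 1469. Calling by adjusted p gave 1840 (14.3%) and 1913 (14.9%). Same-numbered arrays of the tissues correlated in their deviations from the tissue mean at 0.42, -0.05 and 0.10, and the other pairs at -0.34 to 0.40. With 3 arrays per tissue these values cannot decide whether the replicate numbers pair the arrays. A fit with the replicate block gave 1385 and 1639. Among the named probes the block ended the call of Igfbp6 (1.18), added that of Pecam1 (-2.73) and changed no other. Of 122 called probes among the 149 named, 61 kept their call under all alternatives and 61 lost it under at least 1, while 7 of 18 probes not called gained one. Among the named probes only the log2 difference of Col1a1 changed sign, from 0.15 to -0.029 without lung 1, with a range of -0.029 to 0.47 when each array was left out. Levels near background are the limit of depth here, since a tissue in which a probe was not detected gives only a bound on the fold.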

Other observations

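Gene families outside the lists were examined after their values had been seen, and are given as counts of called probes. For counts at an unadjusted p the share of all detected probes is not given here either. Genes of oxidative phosphorylation, which make up the respiratory chain, were higher in mesothelium with 25 of 58 detected probes and higher in lung with 0 by limma (49 and 0 at an unadjusted p under 0.05), at a median log2 difference of 1.08. Cyc1, a subunit of the cytochrome bc1 complex, read 12.11, 11.99 and 12.13 on the mesothelium arrays and 10.58, 9.74 and 9.48 on the lung arrays, a difference of 2.14 ± 0.24. Sdhb, of succinate dehydrogenase, and Cycs, cytochrome c, differed by 1.83 and 1.76. Of the respiratory chain probes 33 were higher in mesothelium with median scaling and 28 in the authors' normalized table. The count was 23 with an offset of 50 and 23 with signals shifted to a minimum of 1. No count is given for all scores in the background step. Histone genes, whose copies are near-identical, were higher in mesothelium with 14 of 30 detected probes (27 at an unadjusted p under 0.05) and in lung with 0 by either measure, at a median of 1.32. Cytosolic ribosomal protein genes gave 0 calls in 72 detected probes by limma, with 15 toward mesothelium and 1 toward lung at an unadjusted p under 0.05. The heart and fat lists were higher in mesothelium in the same libraries, and their part in the respiratory chain counts was not tested.

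Cell junction genes were higher in lung with 9 of 14 detected probes and in mesothelium with 2, both of Cldn15. The tight junction gene Cgn was 5.98 fold higher in lung, and Jup, which encodes plakoglobin, 4.66 fold. Cilia and flagella genes were higher in lung with 6 of 9 detected probes and in mesothelium with 0 by limma and 0 at a raw p below 0.05, among them Drc3, of the dynein regulatory complex (at least 9.13-fold). Of the 6 called probes only a Cfap69 probe was detected on a mesothelium array. The others had passed the detection filter through lung alone, so these counts are not support for a direction. Apolipoprotein and major urinary protein probes were higher in mesothelium with 7 of 8 detected probes, such as that of Apoe (5.07 fold), and several of these genes are close copies. With an offset of 50 the count was 5. The probes of Apoc3, Apoc4, Apol9b, Mup1 and Mup3 had passed the detection filter through mesothelium alone. All 7 called probes had a higher mean in liver than in mesothelium, such as 15.96 against 10.52 on the log2 scale for Mup1. Among chemokines, Cxcl9, which draws T cells, was at least 11.2-fold higher in mesothelium with log2 levels of 9.78, 9.54 and 9.59, while Cxcl14 was at least 9.23-fold higher in lung with 9.51, 9.45 and 9.11.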
